A study of Mus musculus with 21 samples.

Results

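Epithelial cells and fibroblasts sorted from the mouse lung at postnatal day 28 (P28) were compared in 4 of the 21 libraries of a developmental series: 2 of epithelium and 2 of fibroblasts. The 4 libraries were taken by their labels, and the comparison ran over the 20004 genes listed for both cell types, of which 13386 passed a filter on low values. All mice were C57BL/6 and carried a Col1a2-GFP transgene, in which green fluorescent protein marks cells that use the promoter of a type I collagen gene. Per the labels' protocols, lung pieces were digested with collagenase, Dispase II and DNase I, and antibody-labelled cells were depleted on magnetic beads before sorting. The protocol names Epcam among the antibodies of that step, although Epcam-positive cells were then sorted, and how this bears on the epithelial libraries was not tested. Epithelial cells were then sorted as live cells without the lineage markers CD31, CD45, CD146 and Ter119, without GFP and with Epcam. Fibroblasts were sorted as live cells without those markers, without Epcam and with GFP. The other libraries used here hold the same cell types at E18.5, P0.5, P2 and P7, with 2 libraries in each group. The labels do not say whether the libraries of a group came from separate animals, so p-values measure the spread between libraries, which may be technical. Expression was measured by 3′SAGE-seq, in which amplified poly(A) RNA yields 1 sequence tag from the 3′ part of a transcript.

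By P28 the mouse lung has formed its alveoli. Their surface is lined by type 1 cells, thin cells across which gases pass, and by type 2 cells, which make surfactant, the film of lipid and protein that keeps alveoli open, while club and ciliated cells line the airways. Fibroblasts lie in the wall behind this lining, lay down collagen and elastin, and exchange signals with the epithelium through secreted ligands such as hedgehog, PDGF, FGF and HGF proteins. A bulk library of sorted cells averages over all cell types inside its gate, and fewer cells of a type cannot be told apart from less RNA per cell.

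The start regions of 3 genes that stood at opposite ends of the comparison are shown, as the 250 bases upstream of the RefSeq start on the plus strand of build GRCm38.p6, at chr6:72304360-72304609 for Sftpb, chr14:41131538-41131787 for Sftpa1 and chr6:4505368-4505617 for Col1a2. Sftpb and Sftpa1, which encode surfactant proteins B and A, were among the most epithelial genes, and Col1a2, the gene whose promoter gives the reporter its name, was among the most fibroblastic. Capitals in the surfactant genes mark CTCAAG, letters known from sites of the lung epithelial factor Nkx2-1, and capitals in Col1a2 mark CCAAT, the box bound by the factor NF-Y.
Sftpb: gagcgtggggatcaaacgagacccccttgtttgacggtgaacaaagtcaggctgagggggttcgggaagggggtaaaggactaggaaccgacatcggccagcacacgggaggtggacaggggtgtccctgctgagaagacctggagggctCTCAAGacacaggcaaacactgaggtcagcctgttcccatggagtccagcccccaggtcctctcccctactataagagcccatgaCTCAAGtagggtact
Sftpa1: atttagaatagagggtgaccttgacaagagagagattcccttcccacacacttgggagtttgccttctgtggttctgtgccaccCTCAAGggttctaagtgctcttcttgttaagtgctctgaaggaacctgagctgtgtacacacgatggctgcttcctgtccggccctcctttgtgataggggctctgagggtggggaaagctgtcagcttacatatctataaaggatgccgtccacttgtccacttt
Col1a2: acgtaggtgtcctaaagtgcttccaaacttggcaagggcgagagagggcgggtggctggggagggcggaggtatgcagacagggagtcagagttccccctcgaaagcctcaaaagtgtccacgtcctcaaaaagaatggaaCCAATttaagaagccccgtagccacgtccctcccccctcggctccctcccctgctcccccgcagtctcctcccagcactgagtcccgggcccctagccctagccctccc
For the shares below, both strands were searched over the whole stored window of each gene. That window is longer than the 250 bases shown, because it also runs past the start. The RefSeq table held a window for 9385 of the 13386 genes tested, and of its 27025 windows 16.2% held the letters marked in the surfactant genes and 38.0% held those marked in Col1a2. Among the 9385 tested genes with a window these shares were 14.1% and 37.8%. The first motif stood in 13.7% of the windows of genes called higher in epithelium and in 13.6% of those called higher in fibroblasts. For the second motif these shares were 37.2% and 35.1%. Among the genes with a difference of at least 6 log2 units, the first motif stood in 15.8% of 57 epithelial and 20.3% of 79 fibroblast windows, and the second in 38.6% and 25.3%. A match is only a run of letters.

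Values are given as joint CPM, the whole reads recovered from the deposited values over the shared genes, scaled together to a library of 1e+06 reads. They count tags, 1 per transcript whatever its length. Recovered depth at P28 was 2792499 and 3317855 reads in epithelium and 3516352 and 2597688 reads in fibroblasts. A gene with 0 reads in 1 library may hold up to 3 reads, which is 0.864 to 1.2 deposited units at these depths, for counting error only. Differences are on the log2(joint CPM + 1) scale, epithelium minus fibroblasts, and understate the change of low genes. Each has a two-sided test in limma across all genes, with 2 libraries a group, and a gene is called at a Benjamini-Hochberg adjusted p below 0.05.

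The genes of the sort followed the gates. Epcam had 72.3 and 229.6 joint CPM in epithelium, against 0 and 0.394 in fibroblasts, and Col1a2 had 3.17 and 4.13 joint CPM in epithelium, against 3251 and 3080.0 in fibroblasts. Pecam1, which encodes CD31, had 2.12 and 0.276 joint CPM in epithelium against 0.868 and 1.97 in fibroblasts, and Mcam, which encodes CD146, averaged 0.276 ± 0.390 joint CPM in epithelium and 1.18 ± 1.67 in fibroblasts (SD, n = 2 each). The 19 endothelial genes listed for both cell types summed to 207 and 159 joint CPM in the epithelial libraries, against 124 and 122 in the fibroblast libraries. Of the 9 tested, Esam and Egfl7 were called higher in epithelium and Ramp2, Tmem100, Eng and Tek higher in fibroblasts, while the defining genes Cdh5 and Cldn5 had at most 1 read in each P28 library. Leukocyte genes did not stand at 0: the 21 listed leukocyte genes summed to 2038 and 2098 joint CPM in the epithelial libraries, against 77 and 233 in the fibroblast libraries. Ptprc, which encodes CD45, had 11.3 and 20.4 joint CPM in epithelium, against 1.74 and 7.09 in fibroblasts, and Tyrobp, an adaptor of myeloid and NK cells, had 642 and 614 joint CPM in epithelium, against 10.1 and 23.2 in fibroblasts. The Ptprc call (log2 difference 1.79) was lost in edgeR, in DESeq2 and without epithelial library 2 or fibroblast library 1, with 1.41 (adjusted p = 0.12) without the epithelial one. The 8 erythroid genes summed to 1096 and 1352 joint CPM in the epithelial libraries, against 656 and 2859 in the fibroblast libraries. Xist, expressed from the inactive X chromosome of female cells, had 11.6 and 308 joint CPM in epithelium, against 12.2 and 545 in fibroblasts, so that replicate 1 was low and replicate 2 high in both cell types. It was not called, but had -3.13 (adjusted p = 0.022) without fibroblast library 1. The part of these cells and of this split in the differences below was not tested, except where a value is given.

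At P28, 5094 of the 13386 genes tested were called (38.1%), 2616 of them higher in epithelium (19.5%) and 2478 higher in fibroblasts (18.5%). These shares are the background against which every list below is read. The median difference was 0.01 over all genes, and its median size was 1.80 over the genes called higher in epithelium and 1.85 over those called higher in fibroblasts. A difference of at least 6 log2 units was reached by 87 genes on the epithelial side and 123 on the fibroblast side. Scaling by total reads in place of TMM factors moved the median of all genes to 0.11 and the calls to 2962 higher in epithelium and 2271 higher in fibroblasts.

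**Figure D1:**
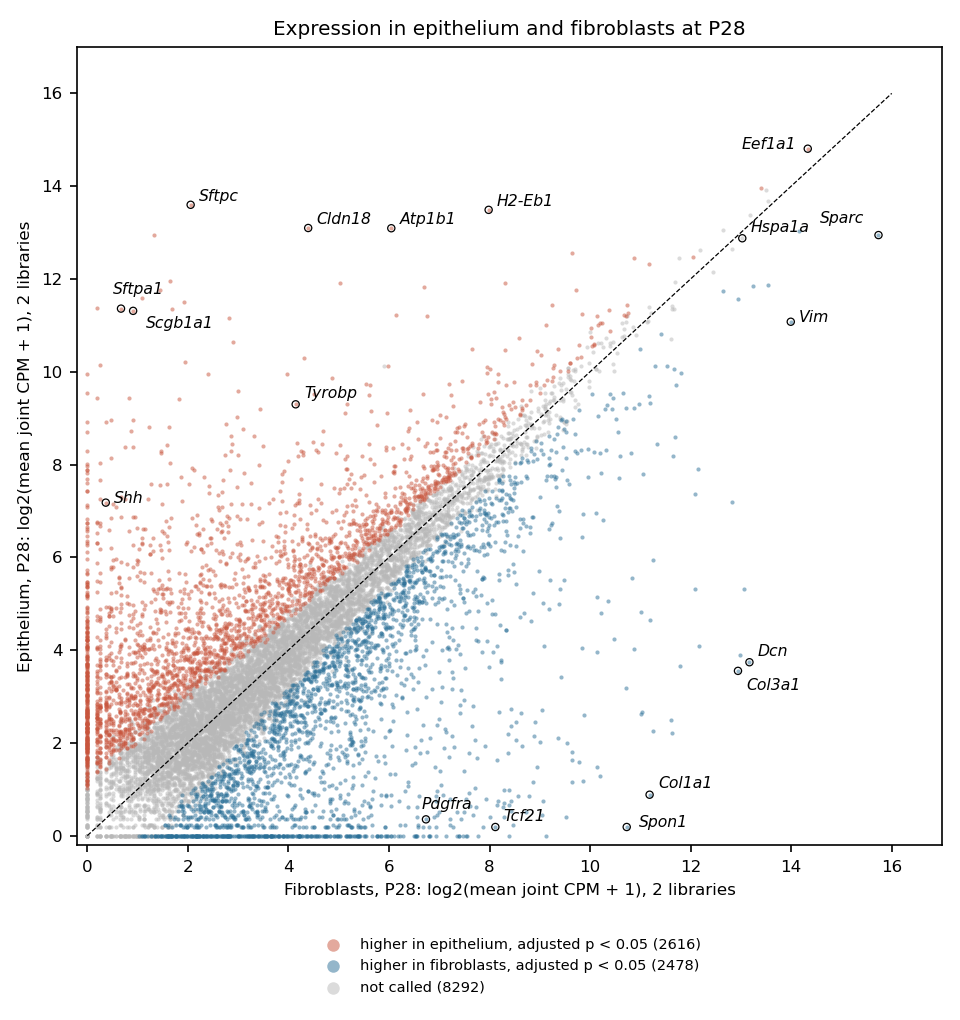
Mean level of each of the 13386 tested genes at P28, epithelium on the vertical axis and fibroblasts on the horizontal axis, both as log2(mean joint CPM + 1) over 2 libraries. Red marks the 2616 genes called higher in epithelium, blue the 2478 called higher in fibroblasts and grey the rest; Sftpc and Spon1 lie far from the dashed line of equal level and Hspa1a lies on it.

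The largest epithelial differences were surfactant, secretory and host defence genes. Sftpb (chr6:72304610-72314371 on GRCm38, plus strand) had 7934 and 7797 joint CPM in epithelium, against 1.45 and 1.57 in fibroblasts. Sftpc (chr14:70520949-70524081, minus strand), which encodes surfactant protein C and is used as the marker of type 2 cells, had 12212 and 12598 joint CPM in epithelium, against 4.34 and 1.97 in fibroblasts, a log2 difference of 11.61 ± 0.42 (SE; limma adjusted p = 5.0e-15). The 15 leading genes were picked by the size of this difference, so the wide gap between the libraries of the 2 cell types follows from the choice. Sfta2, a secreted surfactant-associated protein, came next, with 3189 and 2139 joint CPM in epithelium against 0.289 and 0 in fibroblasts. Sftpa1 had 2806 and 2451 joint CPM in epithelium against 0 and 1.18 in fibroblasts. Hc, the complement component C5, had 3255 and 2901 joint CPM in epithelium, against 1.45 and 0.787 in fibroblasts. Scgb1a1 and Scgb3a1, the secretoglobins of airway secretory cells, were also there, with mean levels of 2542 joint CPM in epithelium against 0.880 in fibroblasts for Scgb1a1 and 3963 joint CPM in epithelium against 2.14 in fibroblasts for Scgb3a1. Also in this group were the lysozymes Lyz1 and Lyz2, whose near-identical sequences can share tags, Sftpd, the phospholipase Pla2g1b, the carbonyl reductase Cbr2, the proton pump subunit Atp6v1c2, the chemokine Cxcl15 and the tight junction protein Cldn18. Cldn18 varied most among them in fibroblasts, with 9083 and 8456 joint CPM in epithelium, against 6.94 and 33.1 in fibroblasts.

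The largest fibroblast differences were matrix genes. Spon1 (chr7:113765998-114043370, plus strand), which encodes spondin 1, a secreted matrix protein, had 0 and 0.276 joint CPM in epithelium, against 1949 and 1443 in fibroblasts, a log2 difference of -10.54 ± 0.31 (SE; limma adjusted p = 1.9e-16). Col1a1 had 1.41 and 0.276 joint CPM in epithelium, against 2675 and 1975 in fibroblasts, and Col3a1 had 9.88 and 11.6 joint CPM in epithelium, against 8595 and 7140.1 in fibroblasts. Dcn, the small proteoglycan decorin, which binds collagen fibrils, had 9.52 and 15.2 joint CPM in epithelium, against 7144 and 11285 in fibroblasts. The 15 genes of this side were picked in the same way. Among them, Itga8, an integrin chain, and Inmt, a methyltransferase, had 0 reads in 1 epithelial library and a few in the other. Itga8 had 0 and 3.58 joint CPM in epithelium, against 1212 and 1051 in fibroblasts. Serping1, the C1 inhibitor, had 15.5 and 12.4 joint CPM in epithelium against 7992 and 8289.6 in fibroblasts. Mgp, the matrix Gla protein, had 4.23 and 4.96 joint CPM in epithelium against 3354 and 2891 in fibroblasts. The remaining genes were Col1a2, Prelp, Fbln1, Bgn, Mamdc2, Mfap4 and Svep1, most of them secreted matrix proteins.

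**Figure D2:**
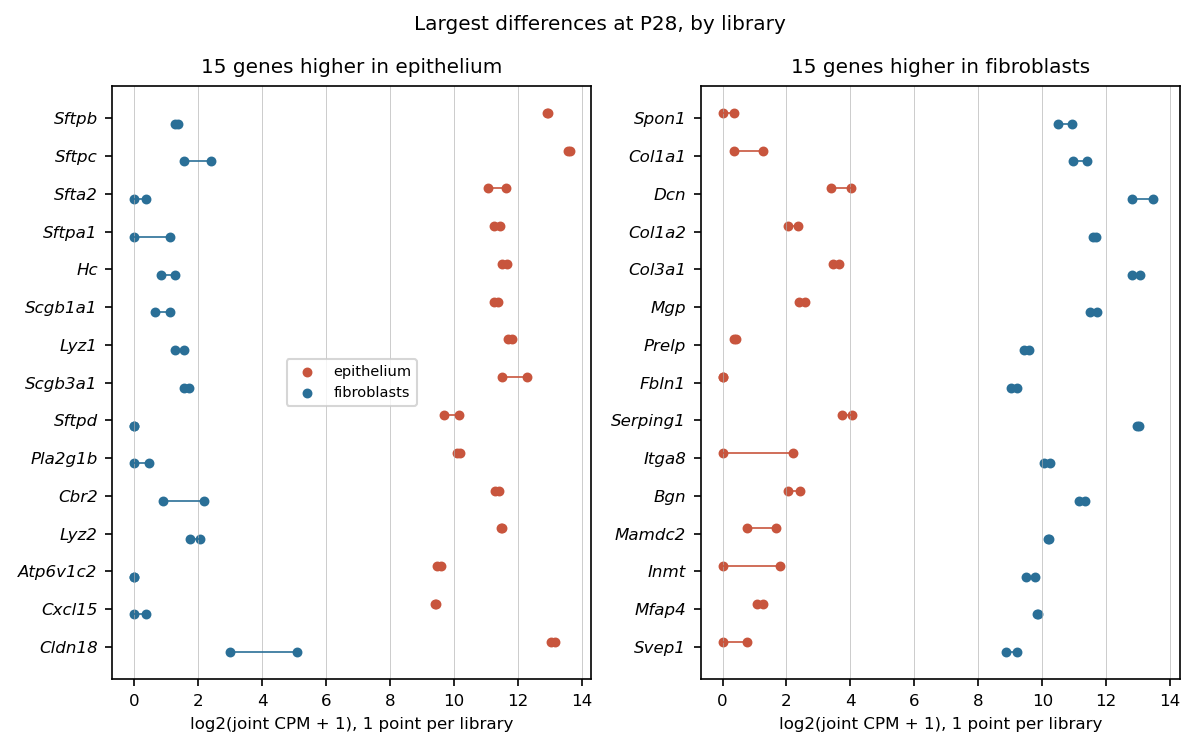
The 15 genes with the largest called difference in each direction at P28 and a mean of at least 50 joint CPM in the higher cell type, with epithelial libraries in red and fibroblast libraries in blue, 1 point per library on a log2(joint CPM + 1) axis. The genes were picked by the size of the difference, so separate groups follow from the choice. Cldn18 and Itga8 show the widest spread in their lower cell type.

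Some genes were near silent in the other cell type. Of the 20004 shared genes, 62 (0.31%) averaged at least 50 joint CPM in epithelium with at most 3 reads over both fibroblast libraries, and 71 (0.355%) did so the other way round. Of these, 29 and 36 had no read at all there, and the 71 became 111 without epithelial library 2. Sftpd, the collectin that binds microbes and surfactant, was at least 1973-fold higher in epithelium, set against a floor of 3 reads over the fibroblast group as in the other bounds. Atp6v1c2 was at least 1479.5-fold higher. Slc34a2, the phosphate carrier of type 2 cells, was at least 829-fold higher, and Chil1, a secreted chitinase-like protein, at least 512-fold higher. Nkx2-1, the transcription factor that sets lung epithelial identity, had 2 fibroblast reads, a ratio of 1496 (95% counting interval 414 to 12351). On the fibroblast side Fbln1, the matrix protein fibulin 1, was at least 1194-fold lower in epithelium. Dpt, dermatopontin, was at least 467-fold lower and Snai2, a repressor of epithelial junction genes, at least 361-fold lower. Tcf21, a transcription factor of lung lipofibroblasts, had 1 epithelial read, and the ratio of fibroblasts to epithelium was 1786 (95% counting interval 321 to 70539). Spon1 also had 1 epithelial read.

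All 30 tested type 2 and surfactant genes were higher in epithelium, and the median log2 difference of the tested members was 7.93, or 8.72 with members at 0 reads in 1 cell type set at their bound, beside 0.01 over all genes. The list summed to 48028 and 46831 joint CPM in the epithelial libraries, against 102 and 117 in the fibroblast libraries. Beside the genes above, Lamp3, a membrane protein of lamellar bodies, in which surfactant is stored, averaged 234 ± 47.8 joint CPM in epithelium and 0 ± 0 in fibroblasts (SD, n = 2 each), and Abca3, which pumps lipid into them, averaged 225 ± 15.6 joint CPM in epithelium and 7.72 ± 3.55 in fibroblasts. Of 24 type 1 genes, 19 were higher and 3 lower in epithelium. Aqp5, a water channel, had 2486 and 2069.8 joint CPM in epithelium, against 2.60 and 9.45 in fibroblasts, and Ager, the receptor RAGE, had 339 and 222 joint CPM in epithelium, against 0 and 0.787 in fibroblasts. Pdpn and Cav1, which are also used as type 1 markers, were not called. Pdpn had 24.7 and 25.9 joint CPM in epithelium against 20.5 and 15 in fibroblasts, and Cav1 had 27.9 and 35.8 joint CPM in epithelium against 25.5 and 26.4 in fibroblasts.

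Airway genes stood in the epithelium too. Of 12 tested club and secretory genes, 8 were higher and 3 lower in epithelium. Cyp2f2, the club cell cytochrome, had 716 and 669.5 joint CPM in epithelium, against 0 and 1.57 in fibroblasts. Fmo2, a flavin monooxygenase placed on this list, went the other way, with 58.9 and 61.7 joint CPM in epithelium, against 2711 and 2143 in fibroblasts. All 8 tested ciliated cell genes were higher in epithelium. Foxj1, the factor that drives ciliogenesis, had 108 and 78.8 joint CPM in epithelium, against 0.868 and 2.76 in fibroblasts, and Dnah9, a ciliary dynein heavy chain, was at least 37.3-fold higher. Tppp3, a tubulin-binding protein used as a ciliated marker, was also abundant in fibroblasts, at 2098 and 2021 joint CPM in epithelium against 569 and 539.7 in fibroblasts. None of the 3 tested basal and neuroendocrine genes was higher in epithelium and 2 were lower.

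Junction, keratin and splicing genes that mark epithelia were higher there in 24 of 25 cases, and 1 was lower. Cdh1, which encodes E-cadherin, had 146 and 131 joint CPM in epithelium, against 0 and 0 in fibroblasts, and was at least 278-fold higher. Esrp1, an epithelial splicing regulator, was at least 472-fold higher, and Spint1, a protease inhibitor, at least 501-fold higher. Of 20 epithelial transcription factors, 19 were higher in epithelium. Nkx2-1 had 531 and 467 joint CPM in epithelium, against 0 and 0.787 in fibroblasts, a log2 difference of 8.54 ± 0.56 (SE; limma adjusted p = 7.2e-11). The Iroquois factors Irx1, Irx2, Irx3 and Irx5 were all higher, with Irx3 the most abundant at 625 and 539 joint CPM in epithelium against 13.6 and 5.90 in fibroblasts. Sox9, a factor of the embryonic lung tips and of cartilage, was the 1 factor of this list called lower in epithelium, with 7.06 and 9.37 joint CPM in epithelium, against 13.6 and 33.9 in fibroblasts, and was named after its value was seen.

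Ion transport and lipid synthesis genes were mainly epithelial. Of 21 ion and water transport genes, 17 were higher and 3 lower in epithelium. Atp1b1, the beta 1 subunit of the sodium pump, was among the 10 most abundant epithelial transcripts, with 8587 and 8887 joint CPM in epithelium, against 51.8 and 78.3 in fibroblasts. Scnn1a, a subunit of the epithelial sodium channel, had 1753 and 1432 joint CPM in epithelium, against 7.81 and 5.12 in fibroblasts. Fatty acid synthesis genes were higher in epithelium in 12 of 18 cases, against 1 lower. Scd1, which desaturates stearate, had 3942 and 3734 joint CPM in epithelium, against 27.5 and 35.8 in fibroblasts, and Fasn, the fatty acid synthase, had 252 and 226 joint CPM in epithelium, against 38.8 and 29.5 in fibroblasts. Cholesterol synthesis genes were higher in 18 of 23 and lower in 2, by smaller amounts, with a median of 1.29. Fdft1, the squalene synthase, averaged 139.6 ± 10.8 joint CPM in epithelium and 20.4 ± 11.6 in fibroblasts. In phospholipid synthesis 9 of 17 were higher and 3 lower, and Lpcat1, which remodels surfactant phosphatidylcholine, had 489 and 549.6 joint CPM in epithelium, against 5.79 and 7.87 in fibroblasts.

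Fibroblasts held the collagens and elastic fibre genes. None of the 16 tested fibrillar and fibril-associated collagen genes was called higher in epithelium and 15 were lower; the median log2 difference of the tested members was -5.36. Col13a1, a transmembrane collagen, had 2.12 and 1.93 joint CPM in epithelium, against 902 and 861 in fibroblasts, and Col6a3, a chain of the microfibrillar collagen VI, had 0 and 1.93 joint CPM in epithelium, against 343 and 322 in fibroblasts. Col12a1, a fibril-associated collagen, was the exception, with 56.8 and 46.9 joint CPM in epithelium against 38.2 and 27.9 in fibroblasts and no call. Of 20 elastic fibre genes, 18 were lower in epithelium and none higher. Eln, which encodes elastin, had 2.47 and 0 joint CPM in epithelium, against 338 and 595 in fibroblasts. Fbn1, the microfibril protein fibrillin 1, had 0.353 and 0.276 joint CPM in epithelium, against 333 and 291 in fibroblasts, and Lox, the enzyme that crosslinks both collagen and elastin, had 15.5 and 13.8 joint CPM in epithelium, against 863 and 1399 in fibroblasts. Small proteoglycan and matricellular genes were lower in epithelium in 26 of 28 cases. Sparc, a collagen-binding glycoprotein, was the most abundant fibroblast transcript and also high in epithelium, with 8505 and 7272 joint CPM in epithelium, against 54756 and 54450.3 in fibroblasts, a log2 difference of -2.80 ± 0.16 (SE; limma adjusted p = 8.8e-12).

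Matrix-degrading enzymes and their inhibitors were also fibroblast genes, lower in epithelium in 25 of 31 cases and higher in 2. Mmp2, gelatinase A, had 0 and 0.276 joint CPM in epithelium, against 142 and 99.6 in fibroblasts, and Mmp14, the membrane enzyme that activates it, had 52.9 and 49.9 joint CPM in epithelium, against 424 and 589.7 in fibroblasts. Pcolce, which helps to cleave procollagen, averaged 165 ± 12.2 joint CPM in epithelium and 4359.6 ± 12 in fibroblasts (SD, n = 2 each). Adamts2, which removes the amino end of procollagen, was at least 399-fold lower in epithelium.

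Basement membrane genes were split between the cell types. Of 23 tested, 8 were higher and 14 lower in epithelium. Laminin chains fell on both sides. Lama2, Lama4 and Lamb1 were fibroblast genes, with Lama4 at 6.0 and 4.13 joint CPM in epithelium against 1124 and 756 in fibroblasts, and Lamb1 at 3.88 and 2.21 joint CPM in epithelium against 559.9 and 468 in fibroblasts. The laminin chains Lama3 and Lamb3 and the alveolar collagen IV chains Col4a3 and Col4a4 were called higher in epithelium; they were named after their values were seen. Lama3 had 19.8 and 25.4 joint CPM in epithelium, against 0 and 0 in fibroblasts, and Col4a3 had 90.3 and 123 joint CPM in epithelium, against 4.63 and 5.90 in fibroblasts. Nid1, the linker protein nidogen 1, had 0 and 0.827 joint CPM in epithelium, against 122 and 129.9 in fibroblasts. Col4a2, a chain of the ubiquitous collagen IV, was shared, with 1801 and 1624 joint CPM in epithelium, against 1749.7 and 1429 in fibroblasts and a log2 difference of 0.11 ± 0.16 (SE; limma adjusted p = 0.63). Npnt, the ligand of the integrin that holds the Itga8 chain, was abundant in fibroblasts and present in epithelium, at 287 and 294 joint CPM in epithelium against 3128 and 3258 in fibroblasts.

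Fibroblast factors and subset markers showed the same division. No tested mesenchymal transcription factor was called higher in epithelium and 27 of 30 were lower. Tcf21 had 0 and 0.276 joint CPM in epithelium, against 291 and 262 in fibroblasts, a log2 difference of -7.94 ± 0.34 (SE; limma adjusted p = 6.5e-14), and Osr1, a factor of lung mesoderm, had 0.353 and 1.10 joint CPM in epithelium, against 276 and 207 in fibroblasts. Zeb2, a repressor of E-cadherin, was higher in fibroblasts but not absent from epithelium, at 35.3 and 53.5 joint CPM in epithelium against 635 and 541 in fibroblasts. Adventitial fibroblast genes were lower in epithelium in 17 of 20 cases and myofibroblast and smooth muscle genes in 13 of 17. Gsn, the actin-severing protein gelsolin, had 24.3 and 53.2 joint CPM in epithelium, against 7795 and 9317 in fibroblasts, and Tagln, a smooth muscle actin-binding protein, had 0.353 and 0 joint CPM in epithelium, against 40.8 and 59 in fibroblasts. The lipofibroblast list was mixed, with 5 of 16 higher and 8 lower in epithelium. The epithelial members included the fatty acid carriers Cd36, with mean levels of 189.8 joint CPM in epithelium against 1.41 in fibroblasts, and Fabp5, with 99.6 joint CPM in epithelium against 2.08 in fibroblasts. G0s2, an inhibitor of lipolysis, was a fibroblast gene with 31 and 23.4 joint CPM in epithelium against 1717 and 2435 in fibroblasts. Lrat, which esterifies retinol, had 2.12 and 8.55 joint CPM in epithelium against 306 and 274 in fibroblasts. Plin2, the coat protein of lipid droplets, was shared, with 616 and 566 joint CPM in epithelium against 522 and 473 in fibroblasts and no call.

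**Figure D3:**
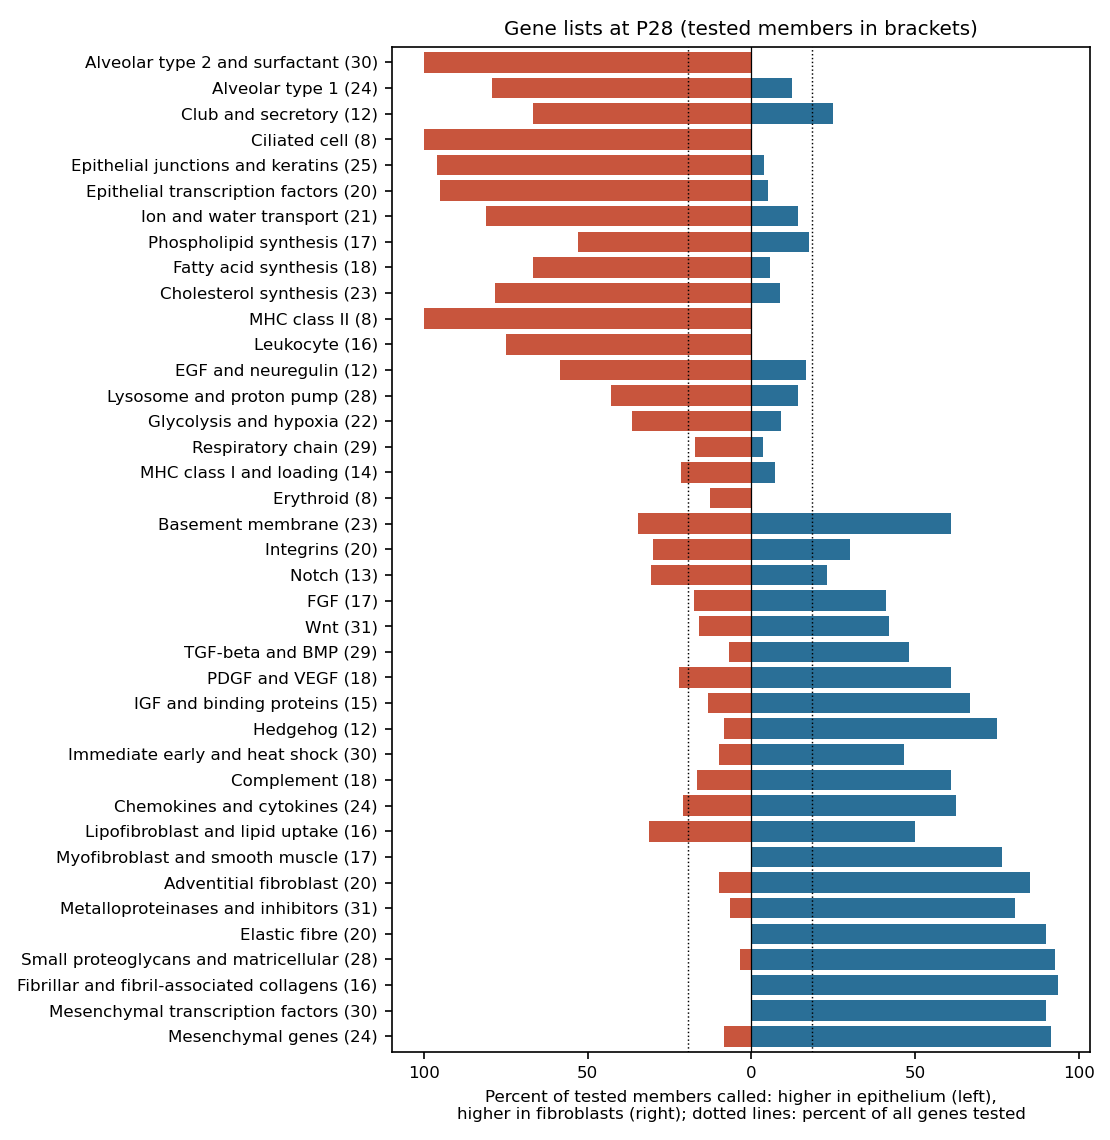
Share of each list's tested members called higher in epithelium (red, to the left) and higher in fibroblasts (blue, to the right) at P28, in percent, with the number tested in brackets and dotted lines at the shares of all genes (19.5% and 18.5%). Type 2, ciliated and MHC class II members were all called higher in epithelium, and collagen, elastic fibre and mesenchymal factor members had no call on that side.

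Pericyte and mesothelial genes were counted as signs of other cells in the gates. Pericyte genes summed to 16.6 and 16.3 joint CPM in the epithelial libraries, against 179 and 171 in the fibroblast libraries. Of the 9 tested, 6 were called higher in fibroblasts and none higher in epithelium. Abcc9, a potassium channel subunit, was the highest of them. The defining genes Rgs5 and Cspg4 averaged 0 joint CPM in epithelium against 0.197 in fibroblasts for Rgs5 and 0 joint CPM in epithelium against 2.29 in fibroblasts for Cspg4. Cspg4 (log2 difference -1.71) and Kcnj8 (-2.60), also used as a pericyte marker, were among the 6 called, and Rgs5 was not called. Mesothelial genes summed to 905 and 824 joint CPM in the epithelial libraries, against 517 and 582 in the fibroblast libraries, and Krt19, a keratin on that list, was called higher in epithelium at 900.2 and 812 joint CPM in epithelium against 56.1 and 34.6 in fibroblasts. Upk1b, a mesothelial uroplakin, had 1.76 and 3.86 joint CPM in epithelium, against 350.1 and 453 in fibroblasts, whereas Msln, mesothelin, had 1.06 and 3.31 joint CPM in epithelium against 33.9 and 20.9 in fibroblasts and Wt1 had 0 and 0 joint CPM in epithelium against 1.16 and 1.18 in fibroblasts. Their part in the values of either cell type was not tested.

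Hedgehog genes were divided into an epithelial ligand and fibroblast receivers. Shh (chr5:28456815-28467256, minus strand), which encodes the secreted ligand Sonic hedgehog, had 142 and 146 joint CPM in epithelium, against 0.579 and 0 in fibroblasts, a log2 difference of 6.85 ± 0.46 (SE; limma adjusted p = 1.1e-10). Of the 12 tested genes of the pathway, 9 were lower in epithelium and Shh alone was higher. The receptor Ptch1 had 5.64 and 10.5 joint CPM in epithelium, against 43.4 and 38.6 in fibroblasts, the decoy receptor Hhip, itself a target of the pathway, had 0 and 0.276 joint CPM in epithelium, against 221 and 246 in fibroblasts, and the target and effector Gli1 had 0 and 0.276 joint CPM in epithelium, against 19.4 and 24.4 in fibroblasts. These 4 genes were picked by their differences, so the lack of overlap between their groups adds no support.

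PDGF ligands stood on both sides. Pdgfa, the ligand that alveolar myofibroblasts need, had 31 and 27.3 joint CPM in epithelium, against 4.05 and 1.97 in fibroblasts, and Pdgfb was at least 39.1-fold higher in epithelium. The ligand Pdgfd was higher in fibroblasts, with 0 and 0.551 joint CPM in epithelium against 11 and 11.8 in fibroblasts, and Pdgfc was not called, with a log2 difference of -0.65 ± 0.43 (SE; limma adjusted p = 0.26). The receptors Pdgfra (chr5:75152292-75198215, plus strand) and Pdgfrb stood in fibroblasts, Pdgfra with 0 and 0.551 joint CPM in epithelium, against 110.0 and 101 in fibroblasts. Of the VEGF and angiopoietin genes on the same list, Vegfa, the main endothelial growth factor, was higher in epithelium at 178 and 152 joint CPM in epithelium against 80.1 and 71.6 in fibroblasts, and Figf, which encodes VEGF-D, was higher in fibroblasts at 9.52 and 6.62 joint CPM in epithelium against 1524 and 1856 in fibroblasts. Angpt1, a ligand that steadies vessels, was at least 139-fold lower in epithelium. Over the whole list, 4 of 18 were higher and 11 lower in epithelium.

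FGF ligands and receptors stood on both sides. Of 17 tested FGF genes, 3 were higher and 7 lower in epithelium. Of the ligands that act on epithelium, Fgf7 had 0 and 1.38 joint CPM in epithelium against 45.1 and 43.7 in fibroblasts. Fgf10 had 0 and 0 joint CPM in epithelium against 26.9 and 23.2 in fibroblasts. Their receptor Fgfr2 had 52.9 and 60.1 joint CPM in epithelium, against 8.68 and 2.76 in fibroblasts. Fgf2 was the most abundant FGF, with 1.41 and 2.21 joint CPM in epithelium, against 547 and 431 in fibroblasts, and Fgfr1 lay on the fibroblast side with it, at 28.2 and 22.1 joint CPM in epithelium against 399.9 and 381 in fibroblasts. The ligand Fgf1 was higher in epithelium, with 42.7 and 32.3 joint CPM in epithelium against 3.18 and 1.97 in fibroblasts, and the receptor Fgfr4 was higher in fibroblasts, with 0 and 0 joint CPM in epithelium against 7.52 and 4.33 in fibroblasts. The receptor Fgfr3 was also called higher in fibroblasts (-1.01), a call lost without epithelial library 2 and without fibroblast library 1, with -0.62 (adjusted p = 0.17) without that fibroblast library. Etv5, a target of FGF signalling in type 2 cells, had 102 and 114 joint CPM in epithelium, against 3.18 and 8.27 in fibroblasts. Hgf, the hepatocyte growth factor, had 0.353 and 1.10 joint CPM in epithelium, against 29.5 and 25.2 in fibroblasts, and its receptor Met had 195 and 192 joint CPM in epithelium, against 10.4 and 6.69 in fibroblasts. Il6st, Osmr and Ntrk2, receptors for cytokines and neurotrophins, were all lower in epithelium.

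EGF family ligands were mainly epithelial. Of 12 tested members, 7 were higher and 2 lower in epithelium. Hbegf had 300.2 and 256 joint CPM in epithelium, against 54.7 and 41.7 in fibroblasts, Btc had 103 and 83 joint CPM in epithelium, against 6.37 and 4.33 in fibroblasts, and Areg was at least 35-fold higher. The receptor Erbb3 had 12.7 and 7.44 joint CPM in epithelium against 0 and 0 in fibroblasts, whereas Egfr, which binds these ligands, was the fibroblast receptor, with 10.9 and 15.4 joint CPM in epithelium, against 66.3 and 58.7 in fibroblasts, a log2 difference of -2.18 ± 0.34 (SE; limma adjusted p = 2.3e-05).

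Wnt ligands were found on both sides. Wnt3a was at least 58.3-fold higher in epithelium, and Wnt5a, a noncanonical ligand, had 0.353 and 0.827 joint CPM in epithelium, against 44.3 and 68.9 in fibroblasts. Wnt2, Rspo3, the secreted inhibitors Sfrp1 and Dkk3, and Ror2, a receptor for Wnt5a, were fibroblast genes. Of the frizzled receptors, Fzd5 had 499.5 and 459.5 joint CPM in epithelium, against 108 and 77.6 in fibroblasts, and Fzd4 had 6.35 and 16 joint CPM in epithelium, against 91.4 and 73.6 in fibroblasts. Axin2, a common target of canonical Wnt signalling, was higher in fibroblasts at 21.9 and 10.8 joint CPM in epithelium against 50.9 and 52.8 in fibroblasts. Of 31 tested members, 5 were higher and 13 lower in epithelium.

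**Figure D4:**
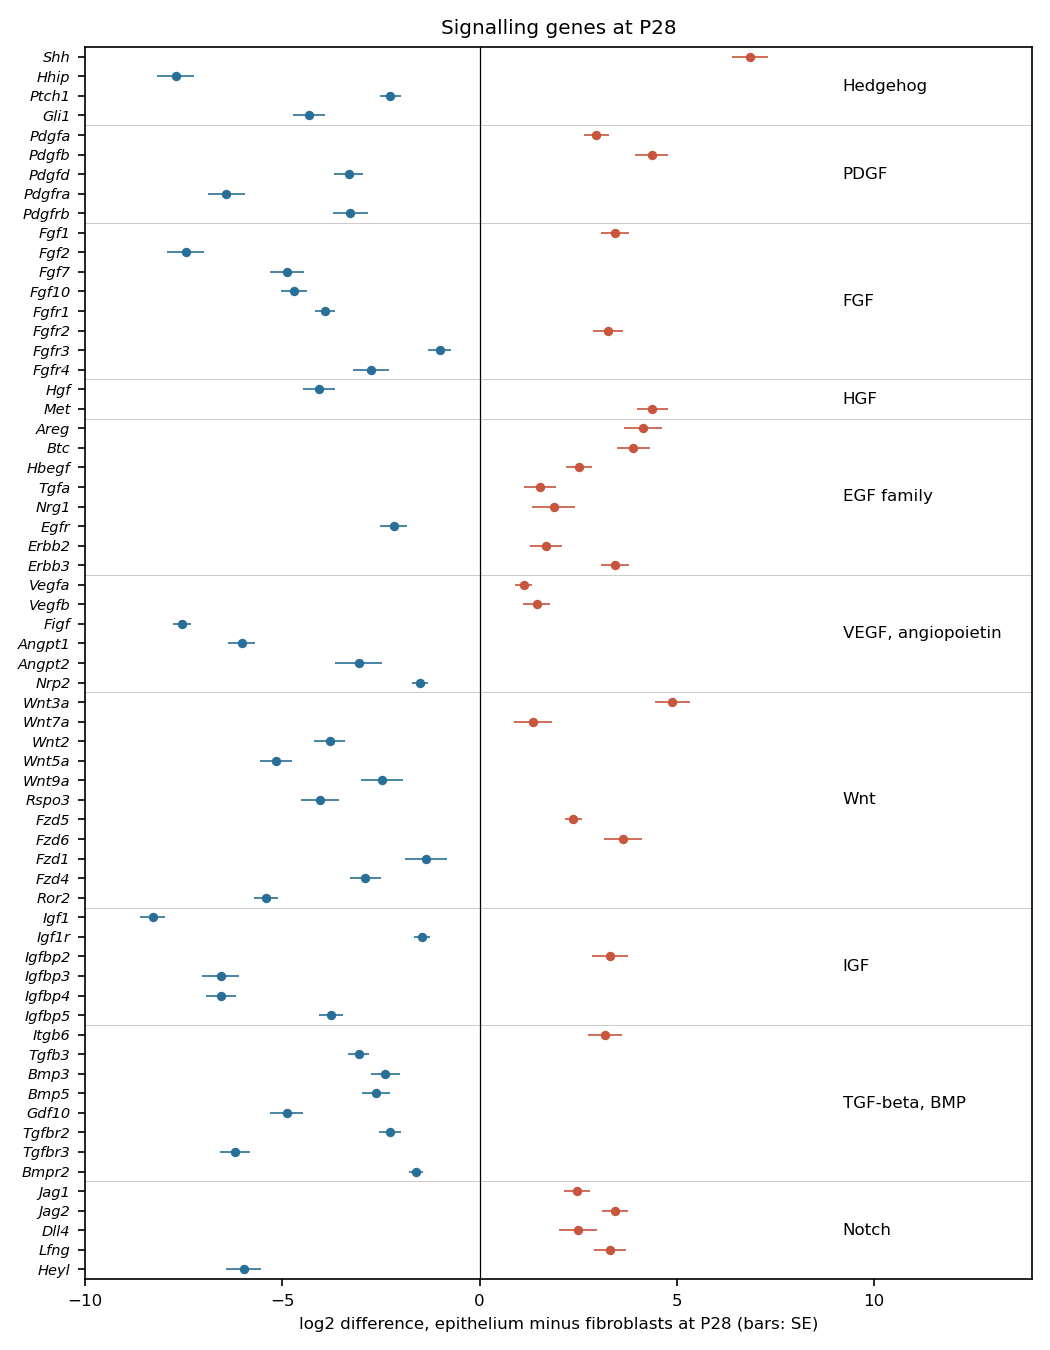
Log2 difference at P28, epithelium minus fibroblasts, of signalling genes grouped by pathway, with bars of 1 SE; red points lie on the epithelial side and blue points on the fibroblast side. Ligands and receptors on opposite sides, such as Shh and Ptch1 or Hgf and Met, were chosen for display because of that pattern, and Pdgfd and Fgf1 lie on the same side as Pdgfra and Fgfr2.

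Of 15 IGF genes and binding proteins, 10 were lower and 2 higher in epithelium. Igf1, the insulin-like growth factor, had 0 and 0.827 joint CPM in epithelium, against 402 and 441 in fibroblasts, and its binding proteins Igfbp3, Igfbp4 and Igfbp5 lay on the same side, with mean levels of 0.353 joint CPM in epithelium against 123 in fibroblasts for Igfbp3, 2.10 joint CPM in epithelium against 282 in fibroblasts for Igfbp4 and 17.2 joint CPM in epithelium against 248 in fibroblasts for Igfbp5. Igfbp2 was the binding protein on the epithelial side, at 8.47 and 13.2 joint CPM in epithelium against 0 and 0.394 in fibroblasts. Of 29 TGF-beta and BMP genes, 14 were lower and 2 higher in epithelium, and the remaining 13 were not called. Tgfbr3, the coreceptor betaglycan, had 6.70 and 4.41 joint CPM in epithelium, against 291 and 767 in fibroblasts, and Itgb6, the chain of the integrin that activates latent TGF-beta, was at least 16.7-fold higher in epithelium. Notch genes counted 4 of 13 higher and 3 lower in epithelium, with a median log2 difference of 0.14. The ligands Jag1, Jag2 and Dll4 were epithelial, with Jag1 at 72 and 67 joint CPM in epithelium against 17.1 and 7.87 in fibroblasts. The target Heyl was fibroblastic at 0.353 and 0 joint CPM in epithelium against 81.6 and 64.6 in fibroblasts. Among guidance genes, 7 of 26 were higher and 13 lower in epithelium. Slit3 and its receptor Robo2 were both fibroblast genes. Slit3 had 2.47 and 5.79 joint CPM in epithelium against 352 and 333 in fibroblasts, and Robo2 had 1.06 and 0.551 joint CPM in epithelium against 123 and 120.1 in fibroblasts. Sema3e was an epithelial one, at 104 and 90.4 joint CPM in epithelium against 2.03 and 0.394 in fibroblasts.

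Antigen presentation and defence genes were unequal. All 8 tested MHC class II genes were higher in epithelium, with a median log2 difference of 4.96. H2-Eb1, a class II beta chain, had 12794 and 10208 joint CPM in epithelium, against 80.1 and 424 in fibroblasts, and Cd74, the invariant chain, had 907 and 1075 joint CPM in epithelium, against 6.37 and 22.8 in fibroblasts. Type 2 cells and leukocytes are both known to make these proteins. In the epithelial libraries the leukocyte list summed to 18.3 and 9.31 joint CPM at P7 and to 2038 and 2098 at P28. The class II list there summed to 2767 and 3231 at P7 and to 14365 and 12080 at P28. At P7 H2-Eb1 averaged 2358 in epithelium and 9.53 in fibroblasts. The part of type 2 cells and of leukocytes in these values was not tested. Class I genes and their loading partners counted 3 of 14 higher and 1 lower. Antimicrobial genes were higher in epithelium in 11 of 15 cases and lower in none, and their member Lyz2, at 2935 and 2869 joint CPM in epithelium against 3.18 and 2.36 in fibroblasts, is also a macrophage gene.

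Complement, chemokine and interferon genes leaned to fibroblasts by the number of calls, although the complement component Hc and the chemokine Cxcl15, described above, were strongly epithelial. Of 18 complement genes, 3 were higher and 11 lower in epithelium, and C7, a part of the membrane attack complex, had 0.353 and 0.551 joint CPM in epithelium, against 365 and 320.4 in fibroblasts. Chemokine and cytokine genes were higher in 5 and lower in 15 of 24 cases. Their summed level did not lean this way, at 3299 and 2734 joint CPM in the epithelial libraries against 3694 and 2632 in the fibroblast libraries. Lif, a cytokine of the interleukin 6 family, had 33.9 and 35.3 joint CPM in epithelium, against 1514 and 729.8 in fibroblasts, and Cxcl14 had 0 and 0.551 joint CPM in epithelium, against 192 and 151 in fibroblasts. Cxcl2, a neutrophil chemokine, was high in both, at 1114 and 767 joint CPM in epithelium against 843 and 672 in fibroblasts, with no call. Of 22 interferon response genes, 4 were higher and 11 lower in epithelium. Ifitm3, a membrane protein that blocks virus entry, had 136 and 111 joint CPM in epithelium, against 1165 and 1058 in fibroblasts. Its tags can be shared with close relatives.

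Immediate early and heat shock genes, which are known to respond to tissue handling, were abundant in both cell types. The 30 immediate early and heat shock genes summed to 47148 and 36271 joint CPM in the epithelial libraries, against 63380.1 and 65916 in the fibroblast libraries. Of them, 3 were higher and 14 lower in epithelium. Fos, the immediate early factor, had 2858 and 3183 joint CPM in epithelium, against 8179 and 7533 in fibroblasts, and Fosb had 1095 and 1023 joint CPM in epithelium, against 2969 and 3517 in fibroblasts. Hspa1a, a heat-induced chaperone whose tags can be shared with Hspa1b, had 9119 and 5926 joint CPM in epithelium, against 8222 and 8471 in fibroblasts and a log2 difference of -0.18 ± 0.35 (SE; limma adjusted p = 0.72). Circadian clock genes were called lower in epithelium in 6 of 18 cases and higher in none, led by the output factor Hlf at 0.706 and 1.38 joint CPM in epithelium against 209.8 and 209 in fibroblasts. The labels give no hour of day at which lungs were taken.

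Respiratory chain genes were called higher in epithelium in 5 of 29 cases, near the share of all genes, with a median of 0.31, and each of the 6 calls of the list was lost when 1 of the 4 libraries was left out. Sod2, the mitochondrial superoxide dismutase, was not called, at 2265 and 2115 joint CPM in epithelium against 2535 and 2043 in fibroblasts. By contrast, Sod3, the extracellular superoxide dismutase, had 0.706 and 0.551 joint CPM in epithelium, against 339 and 286 in fibroblasts and Gpx3, the secreted glutathione peroxidase, 1.41 and 2.76 joint CPM in epithelium, against 806 and 785 in fibroblasts. Cell cycle genes were higher in epithelium in 8 of 24 cases. Top2a, a topoisomerase of dividing cells, had 88.5 and 53.2 joint CPM in epithelium, against 20.8 and 11.4 in fibroblasts, and Mki67 had 16.2 and 10.8 joint CPM in epithelium, against 4.05 and 1.57 in fibroblasts. Of imprinted growth genes, 2 of 18 were higher and 10 lower in epithelium.

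The difference between the cell types was not the same at P28 as before. Against the mean of the differences at E18.5, P0.5, P2 and P7, the difference moved towards epithelium in 740 genes (5.53%) and towards fibroblasts in 1257 (9.39%). Of the 740, 388 were also called higher in epithelium at P28, and of the 1257, 715 were called higher in fibroblasts. The fitted difference at P28 had the opposite sign to the earlier mean in 297 of the 740 and in 421 of the 1257. Against P7 alone, 1150 genes were called (8.59%), of which 417 (3.12%) moved towards epithelium and 733 (5.48%) towards fibroblasts. The balance rested on the scaling: with total reads the counts were 1018 and 1032 against the earlier stages, and 639 and 570 against P7. Leaving out epithelial P28 library 1 lowered the counts to 381 and 829 against the earlier stages and the count towards epithelium against P7 to 269, and leaving out fibroblast P28 library 1 lowered the count towards fibroblasts against P7 to 483. The P28 libraries enter both comparisons, which are therefore not independent of each other.

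Matrix genes that moved went mostly towards the fibroblast side. In the basement membrane list 15 of 23 genes moved towards fibroblasts and 2 towards epithelium, and in the collagen list 10 of 16 moved towards fibroblasts and none towards epithelium. Elastic fibre genes moved towards fibroblasts in 11 of 20 cases and towards epithelium in 1. Their sum was nevertheless lower at P28 than at E18.5 in both cell types. In fibroblasts it was 13908 and 15590 joint CPM at E18.5 and 5607 and 6241 at P28. In epithelium it was 2862 and 2591 at E18.5 and 654 and 611 at P28. Fstl1, a secreted follistatin-like glycoprotein, averaged 7923, 1309.8, 1526, 363 and 15.9 joint CPM in epithelium over the 5 stages in order of age, and 4905, 2831, 11769, 5738 and 4627 in fibroblasts. Its epithelial level at P28 was far below every earlier stage and its fibroblast level was inside the earlier range, and the difference moved by -6.25 ± 0.22 (SE; adjusted p = 7.1e-14). Lamb1 averaged 50.9, 47.4, 70.8, 91.9 and 3.04 in epithelium and 524, 355, 334, 399 and 514 in fibroblasts over the same stages, a move of -4.38 ± 0.23 (SE; adjusted p = 9.3e-11). Prelp, a collagen-binding proteoglycan, took the other route. It averaged 0, 0, 0.369, 0.969 and 0.314 in epithelium and 9.77, 25.5, 32.7, 22.2 and 729 in fibroblasts, so its fibroblast level was low before P28. The move of Prelp was -5.00 ± 0.47 (SE; adjusted p = 2.9e-07) against the earlier stages, where edgeR gave -4.02 (adjusted p = 1), and -5.35 ± 0.59 (SE; adjusted p = 4.7e-06) against P7.

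Several other genes were higher in fibroblasts at P28 than at any earlier stage. Crispld2, a secreted protein, averaged 1.35, 18.9, 0.432, 0.707 and 148 joint CPM in fibroblasts over the 5 stages and at most 0.276 in epithelium. Inmt averaged 46.4, 314, 11.6, 6.02 and 799 in fibroblasts, high at P0.5 and again at P28. Lrat averaged 1.99, 5.88, 3.01, 3.0 and 5.33 in epithelium and 8.76, 1.64, 3.77, 9.22 and 290.1 in fibroblasts, a move of -5.21 ± 0.56 (SE; adjusted p = 1.2e-06). Hr, a nuclear corepressor, Wfdc10, a protease inhibitor-like protein, Col15a1, a basement membrane collagen, and Tecrl moved the same way, with fibroblast means at P28 of 93.5, 53.4, 81.7 and 45.1. Hr and Tecrl had moves of -6.11 and -5.49, larger in size than their P28 differences of -3.81 and -3.52. The earlier mean difference of Hr and Tecrl therefore lay on the epithelial side. Pdgfra averaged 13, 33.6, 13.3, 7.95 and 106 in fibroblasts and below 1 in epithelium, and its difference moved by -2.95 ± 0.52 (SE; adjusted p = 4.1e-04). Against P7 the same direction was taken by Tnfsf13b, the B cell factor BAFF, Papss2, a sulfate donor synthase, Jade2 and Wipf3. The moves of Papss2 (-5.06), Jade2 (-5.07) and Wipf3 (-6.14) were larger in size than their P28 differences of -3.63, -1.14 and 0.007. Papss2, Jade2 and Wipf3 had therefore stood on the epithelial side at P7. Wipf3 ended level at P28, at 80.1 and 32 joint CPM in epithelium against 31 and 81.9 in fibroblasts, with its 2 libraries far apart in both cell types. In edgeR the moves of Crispld2 and Wfdc10 against either reference and of Inmt against P7 were not called, with adjusted p = 0.17 for Crispld2 against P7.

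Msln, Dlk1, Aqp1 and Egfr moved towards fibroblasts and were at their lowest in epithelium at P28. Msln averaged 419, 215, 101, 20.6 and 2.18 in epithelium and 8.76, 7.38, 1.89, 41.5 and 27.4 in fibroblasts over the stages, and its difference moved by -6.79 ± 0.58 (SE; adjusted p = 9.6e-08). Dlk1, an imprinted inhibitor of differentiation, averaged 192, 128, 23.3, 23.4 and 0 in epithelium, and Aqp1, a water channel, 98.4, 63, 35.8, 50.7 and 3.97. Dlk1 and Aqp1 had P28 differences of only -1.43 and -1.41, so Dlk1 was low in fibroblasts too. Egfr had the higher mean in epithelium at each earlier stage and in fibroblasts at P28. It averaged 36.8, 35.7, 34.3, 41.1 and 13.2 in epithelium and 5.93, 15.7, 9.71, 9.26 and 62.5 in fibroblasts, a move of -4.01 ± 0.38 (SE; adjusted p = 3.6e-07). Igfbp6 had the same order, with 4581, 2428, 479, 435 and 839 in epithelium and 162, 643, 194, 312 and 3364 in fibroblasts.

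Some secretory and defence genes moved towards epithelium. In the type 2 list 11 of 30 genes moved towards epithelium and 2 towards fibroblasts against the earlier stages, but only 3 and 2 did so against P7. In the club list of 12 the counts were 7 and 3 against the earlier stages and 6 and 3 against P7. In the antimicrobial list of 15 they were 8 and 2, and 3 and 1. Sftpa1 averaged 196, 272, 1087, 752 and 2628 joint CPM in epithelium over the 5 stages and at most 1.29 in fibroblasts, a move of 2.40 ± 0.39 (SE; adjusted p = 2.0e-04). Scgb1a1 averaged 55.7, 213, 545, 356 and 2542 in epithelium, a move of 3.34 ± 0.37 (SE; adjusted p = 1.8e-06). Scgb3a1 averaged 5.85, 11.8, 163, 64.8 and 3963, but its fibroblasts held no read before P28, and edgeR did not call its move against the earlier stages, with 1.21 (adjusted p = 0.95), beside 5.87 ± 1.13 (SE; adjusted p = 0.0011) in limma. Abca3 went against its list, with 241, 329, 314, 450.3 and 225 in epithelium and 0.605, 1.15, 1.53, 2.55 and 7.72 in fibroblasts, a move of -2.42 ± 0.41 (SE; adjusted p = 3.2e-04). Type 1 genes moved towards fibroblasts in 11 of 24 cases and towards epithelium in 4. Their sum was 40252 and 39056 joint CPM in the epithelial libraries at E18.5 and 20743 and 18829 at P28.

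Some genes of immune cells also moved towards epithelium. Il1b, the inflammatory cytokine, averaged 21.7, 61.4, 123, 0.0881 and 451 joint CPM in epithelium and 0.538, 6.91, 3.19, 0 and 2.09 in fibroblasts over the 5 stages, a move against P7 of 7.08 ± 0.98 (SE; adjusted p = 7.6e-05) in limma. Ccl5, a chemokine of T and NK cells, averaged 2.85, 0, 36.7, 0 and 735 in epithelium and 0, 0, 2.58, 1.85 and 21.6 in fibroblasts. Il12b, a cytokine subunit, Havcr1 and Havcr2, receptors of the TIM family, Rgs1, Pik3r5 and Clec4n, a lectin of myeloid cells, also moved this way, and at P28 they averaged 87.5, 40.2, 116, 236, 87.4 and 61.8 in epithelium. Beside them, 6 of 16 leukocyte list genes moved towards epithelium and none towards fibroblasts. The summed list in the epithelial libraries was 195 and 455 joint CPM at E18.5, 264 and 246 at P0.5, 169 and 766 at P2, 18.3 and 9.31 at P7 and 2038 and 2098 at P28. The part of leukocytes in these moves was not tested. The moves of Il12b and Havcr2 against either reference, of Havcr1 and Rgs1 against the earlier stages, and of Il1b and Clec4n against P7 were not called by edgeR, with 5.76 (adjusted p = 1) for Il1b. Vim, the intermediate filament protein of mesenchymal and blood cells, averaged 279, 361, 561, 121 and 2160.2 in epithelium and 5482, 13592, 15427, 12982 and 16291 in fibroblasts, a move towards epithelium of 2.34 ± 0.18 (SE; adjusted p = 2.9e-08).

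A few moves towards epithelium came wholly or partly from a fall in fibroblasts. Col25a1, a transmembrane collagen, averaged 247, 148, 92, 78.2 and 0.197 joint CPM in fibroblasts over the stages and at most 1.07 in epithelium, so that by P28 both cell types were near 0. Shisa6 averaged 78.7, 49.2, 49.4, 11.9 and 0 in fibroblasts and 0.159, 1.12, 2.34, 2.56 and 15.7 in epithelium. Basp1, a membrane-bound signalling protein, and Slc7a8, an amino acid carrier, crossed over in the same way, Basp1 with 0.894, 3.21, 2.85, 0.618 and 27.8 in epithelium and 9.50, 14.8, 26.1, 27.6 and 5.26 in fibroblasts. Cyp2b10, a drug-metabolising cytochrome, instead moved by a rise in epithelium. It averaged 1.71, 2.33, 1.19, 3.19 and 77.9 in epithelium and at most 0.145 in fibroblasts. The moves of Col25a1 and Cyp2b10 were not called by edgeR. Cell cycle genes moved towards epithelium in 10 of 24 cases. Top2a averaged 21.9, 10.3, 7.23, 61.4 and 70.9 in epithelium and 19.4, 10.6, 44.3, 109 and 16.1 in fibroblasts, so that the fibroblast level at P28 was below that at P7.

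**Figure D5:**
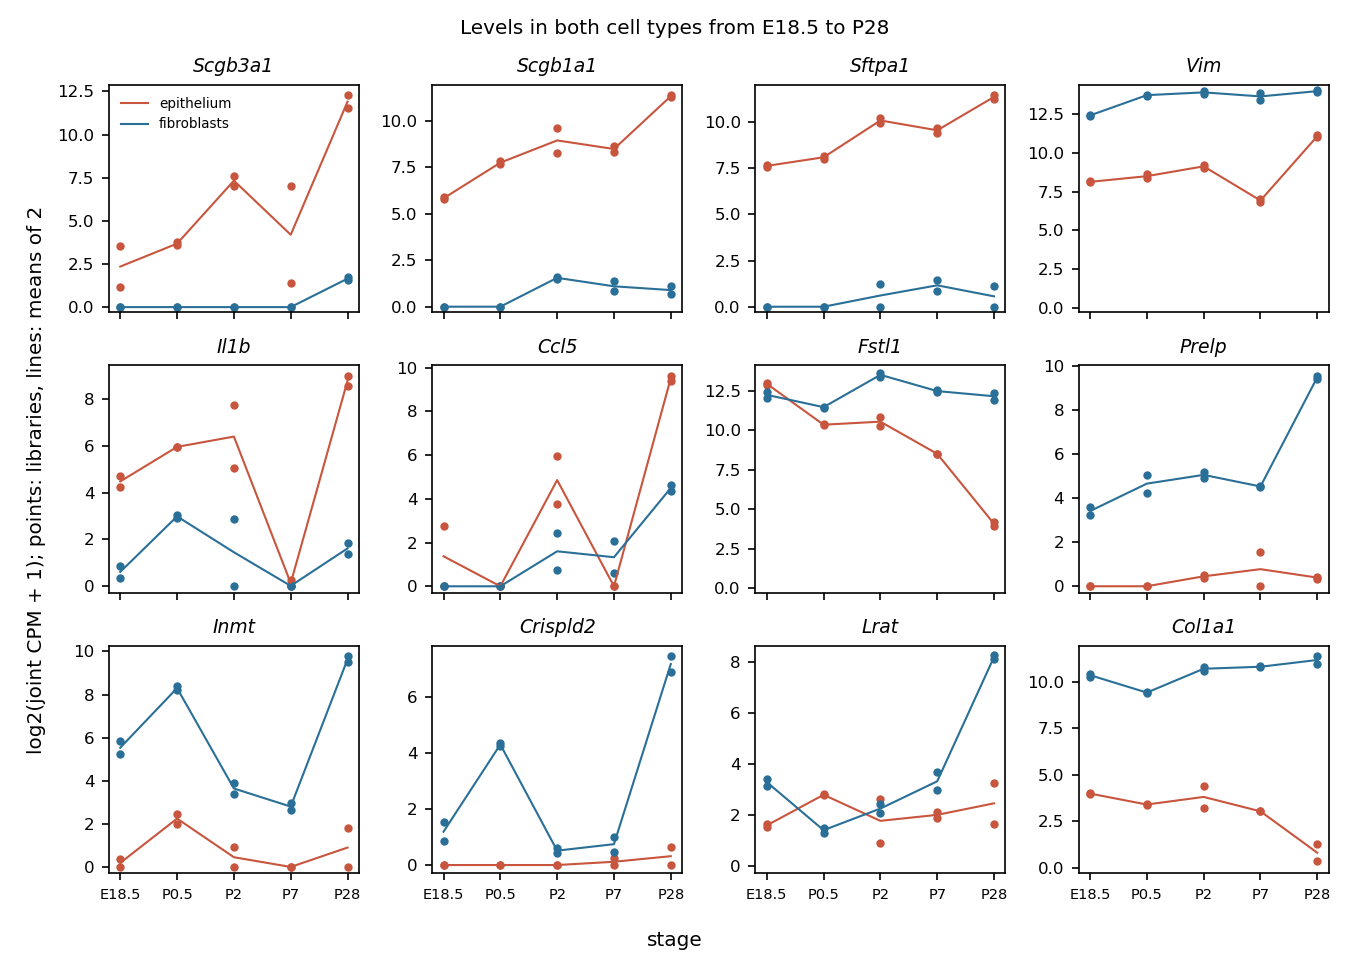
Level of 12 genes in epithelium (red) and fibroblasts (blue) from E18.5 to P28, as log2(joint CPM + 1), with 1 point per library and lines through the mean of 2. Fstl1 falls in epithelium, Prelp, Crispld2 and Lrat rise in fibroblasts at P28, and Il1b and Ccl5 are near 0 in epithelium at P7 and high at P28.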

How the data were processed

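Epithelial cells and fibroblasts of the mouse lung were profiled by 3′SAGE-seq. Per the submitters' processing notes, Bowtie2 2.2.5, R 3.4.0 and mm10 were used, in roles the notes do not state. The sources used here do not give the normalization. The authors deposited signal values, 1 table per library, with 23869 genes in epithelial and 21170 in fibroblast tables. Each library's values were divided by its smallest step, the value of 1 read, and 100% of values came out whole within 0.01. Reads over the 20004 shared genes were scaled with TMM factors over the 20 libraries of the 5 stages that both cell types share, which gave joint CPM. The P56 fibroblast library was left out. Total recovered reads ran from 2146071 to 5602529 in these 20 libraries, and 99.6% or more of them lay in shared genes. The precision of low values is set by this depth, and intervals cover counting error only.

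Genes with at least 3 joint CPM in at least 2 libraries were fitted with limma 3.58.1 in R 4.3.3 on log2(joint CPM + 1) with a trend, as 10 means with 10 residual degrees of freedom, and Benjamini-Hochberg adjusted p-values used a threshold of 0.05. The interactions set the P28 difference against the mean of the earlier differences or against P7. As a count test on the recovered reads, the quasi-likelihood test of edgeR 4.0.16 called 2437 genes higher and 2360 lower in epithelium at P28. DESeq2 1.42.0 called 2248 and 2135. Other alternatives were size-factor and total-read scaling, pseudocounts of 0.5 and 3, no filter, a filter on P28 alone, the 4 P28 libraries alone, the replicate number as a block, and leaving out each library. The code was tested on simulated data. Promoter windows were read with Python 3.11.15 from RefSeq tables of GRCm38.p6.

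The groups, the gene lists and the rule for naming genes were chosen with earlier results of these data known. The rule named the sort genes, the 15 largest called differences in each direction with a mean of at least 50 joint CPM, up to 6 called members of each list with the smallest p and 3 uncalled members with the highest mean, ligands and receptors on opposite sides, the 10 most abundant genes, Xist and Y-linked genes, and the 10 largest interactions in each direction with a mean of at least 20 joint CPM. Stage courses of list members were chosen after their values were seen. Some results are not reported here.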

Additional observations from a re-analysis of the deposited data

Results flagged for a closer look

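The difference between epithelium and fibroblasts at P28 was itself tested against the same difference at other stages, and results past the threshold are given here. Against the mean of E18.5, P0.5, P2 and P7, limma called 740 genes that moved towards epithelium and 1257 that moved towards fibroblasts. Against P7 alone the counts were 417 and 733. All values in brackets are changes of the log2 difference on the log2(joint CPM + 1) scale, with 2 libraries in each group.

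Against the earlier stages the largest moves towards epithelium were those of Shisa6 (8.22), Havcr1 (6.76), Il12b (6.18), Col25a1 (6.06), Scgb3a1 (5.87), Basp1 (5.14), Pik3r5 (4.80), Rgs1 (4.65), Havcr2 (4.64) and Cyp2b10 (4.56). The largest moves towards fibroblasts were those of Msln (-6.79), Fstl1 (-6.25), Hr (-6.11), Aqp1 (-5.79), Wfdc10 (-5.76), Tecrl (-5.49), Crispld2 (-5.21), Lrat (-5.21), Prelp (-5.00) and Col15a1 (-4.94).

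Against P7 the largest moves towards epithelium were those of Havcr1 (7.52), Il1b (7.08), Ccl5 (6.35), Basp1 (6.35), Il12b (6.30), Scgb3a1 (6.06), Havcr2 (5.99), Clec4n (5.97), Tyrobp (5.94) and Slc7a8 (5.88). Those towards fibroblasts were Crispld2 (-6.25), Wipf3 (-6.14), Inmt (-5.94), Wfdc10 (-5.76), Dlk1 (-5.62), Prelp (-5.35), Tnfsf13b (-5.22), Hr (-5.14), Jade2 (-5.07) and Papss2 (-5.06). Msln, Fstl1 and Dlk1 were lowest in epithelium at P28, and Crispld2, Wfdc10, Prelp and Lrat were highest in fibroblasts there. Many of these genes had 0 reads in at least 1 group, where the size of the change depends on the pseudocount.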

How the results depend on the processing

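No called difference of a named gene changed its sign under the alternatives run, whereas some that were not called did. The balance of counts did turn: with total reads the P7 comparison gave 639 genes moving towards epithelium and 570 towards fibroblasts, and the median move of all genes went from -0.05 to 0.11 against P7 and from -0.05 to 0.08 against the earlier stages. The P28 counts also turned, to 2185 and 2201 with the 4 P28 libraries alone and to 1989 and 2014 without epithelial library 1. Genes called higher in epithelium at P28 numbered 2185 (the 4 P28 libraries alone) to 2962 (total reads), and those called lower 2135 (DESeq2) to 2630 (no filter), when all 4 libraries were used. Leaving out 1 library gave 1989 to 2258 and 2007 to 2087. Against the earlier stages, edgeR called 493 genes moving towards epithelium, and leaving out 1 library gave 381 to 573 towards epithelium and 829 to 903 towards fibroblasts. Against P7, leaving out 1 library gave 269 to 378 and 483 to 568. With a minimum mean of 20 joint CPM, 130 genes stood in epithelium alone and 169 in fibroblasts alone. With the minimum of 50 joint CPM, leaving out 1 library gave 61 to 91 and 69 to 111. The cause of these changes was not tested, and the fits that left out 1 library also had fewer samples.

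The replicate numbers were not taken to pair the libraries, because the correlations of same-numbered deviations were -0.05, 0.10, 0.03, 0.07 and -0.05 from E18.5 to P28. Xist had the same replicate order in both cell types at P28, and whether same-numbered libraries share animals was not tested. With the replicate block the P28 counts were 2585 and 2466, and the interactions 705 and 1207 against the earlier stages, and 378 and 654 against P7. Where a group held 0 reads, edgeR and DESeq2 often missed the interaction that limma called. Depth limits statements about genes with few reads.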

Other observations

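Genes listed for only 1 cell type were not compared. Of 3865 genes listed for epithelium alone, 56 averaged at least 10 deposited units at P28, and of 1166 listed for fibroblasts alone, 8 did. Among the epithelial ones, Ccl22, a chemokine of dendritic cells, had 312 and 316 deposited units in the 2 libraries, and Ccl17, a chemokine for the same receptor, had 25.9 and 37.4. Timd4, a receptor of resident macrophages, had 241 and 231, and Tff2, a secreted trefoil peptide, had 196 and 246. Car8, a carbonic anhydrase-related protein, had 138 and 157. Among the fibroblast ones, Adra1a, an adrenergic receptor, had 24.5 and 27.5. These genes were chosen after their values were seen. The Y-linked genes Ddx3y, Kdm5d, Uty and Eif2s3y were listed for epithelium alone, with 16.6 and 13.5 for Ddx3y, 18.5 and 14.4 for Kdm5d, 17.8 and 7.78 for Uty and 6.95 and 5.18 for Eif2s3y in libraries 1 and 2.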
